A study of Mus musculus with 4 samples.

Results

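Endothelial identity genes were followed through 4 RNA-seq libraries of cultured mouse pancreatic fibroblasts. The list holds 36 genes chosen by name: cell junction and surface proteins, receptors, transcription factors, scavenger and secreted proteins, and the enzyme Nos3. The list covers blood and lymphatic vessels. All 36 had 1 row each among the 38921 gene intervals of the deposited tables. The groups were wild type (2 libraries, called here wild type 1 and wild type 2) and KPC (2 libraries, KPC 1 and KPC 2). All 4 came from pancreas of mice of mixed strain, and the cells were separated by gravity and grown in serum-containing medium. KPC names a mouse line used to model pancreatic tumours; the labels give the name alone, with no allele, Cre driver, age or treatment. The labels call the libraries biological replicates without naming animals or cultures, so p-values measure only the spread between these libraries, which may be technical.

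Endothelial cells line blood and lymphatic vessels. They are held together by adhesion molecules such as VE-cadherin (Cdh5) and claudin 5 (Cldn5), receive growth signals through the VEGF receptors (Flt1, Kdr, Flt4) and the angiopoietin receptor Tek, and keep their identity through ETS-family (Erg, Fli1), SoxF (Sox7, Sox17, Sox18), Tal1 and Gata2 transcription factors. Lymphatic endothelium is set apart by Prox1, its master regulator, and by Lyve1, Flt4 and Mmrn1. Most of these genes serve as endothelial markers in tissue. In a bulk library such as these, fewer cells of a type and less RNA per cell cannot be told apart.

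The libraries held 53232634 and 22302141 counts in wild type 1 and 2, and 57926327 and 68312367 in KPC 1 and 2. Levels are given as CPM (counts scaled to a common library size) after TMM scaling (edgeR's correction for library composition). The smallest library, wild type 2, carries the widest counting error: 3 counts, the level that a count of 0 still allows, equal 0.134 CPM there and 0.0442 to 0.0571 CPM in the others. The 12 fibroblast markers summed to 11420 to 14670 CPM, mostly from collagen genes, Vim and Fn1; the type I collagen genes Col1a1 and Col1a2 averaged 4713 and 2651 CPM over the 4 libraries. The other fibroblast markers differed in level. Postn had 178 CPM in wild type 1 and 248 to 728 CPM elsewhere, and S100a4 had 1284 CPM and 130 to 341 CPM. Thy1 had 89.3 to 216 CPM and Pdgfra 13.8 to 48.7 CPM over the 4 libraries. Fap and Lum were low: Fap had 2.07 to 8.05 CPM, and Lum had 0.171 CPM (9 counts) in wild type 1 and 1.496 to 7.34 CPM elsewhere. Dcn had 14.4 CPM in wild type 1, and the values for wild type 2, KPC 1 and KPC 2 were 63.1, 21.9 and 53.8 CPM.

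The endothelial genes were concentrated in 1 wild type library. Summed over the 36 genes, the level was 1299 CPM in wild type 1 against 162.5 CPM in wild type 2, 157 CPM in KPC 1 and 211 CPM in KPC 2. Of the 34 genes with enough counts to be tested, 31 were highest in wild type 1, where 31% of all 23046 tested rows were. Wild type 1 was at least 4-fold above the highest of the other 3 libraries in 21 of the 34, against 0.881% of all rows. By this sum the wild type group held 1 library with a high level and 1 near the level of KPC. By role, wild type 2 was above both KPC sums for junction and surface genes (54.0 against 24.9 and 39.3 CPM). The same held for transcription factors (15.4 against 7.31 and 9.47 CPM) and for secreted proteins and Nos3 (6.66 against 5.13 and 4.615 CPM). Wild type 2 was between them for receptors and ligands (60.5 against 63.05 and 53.6 CPM). Stab1, Stab2 and Lyve1 summed lower in wild type 2 (26.0 CPM) than in KPC (56.8 and 104 CPM).

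**Figure D1:**
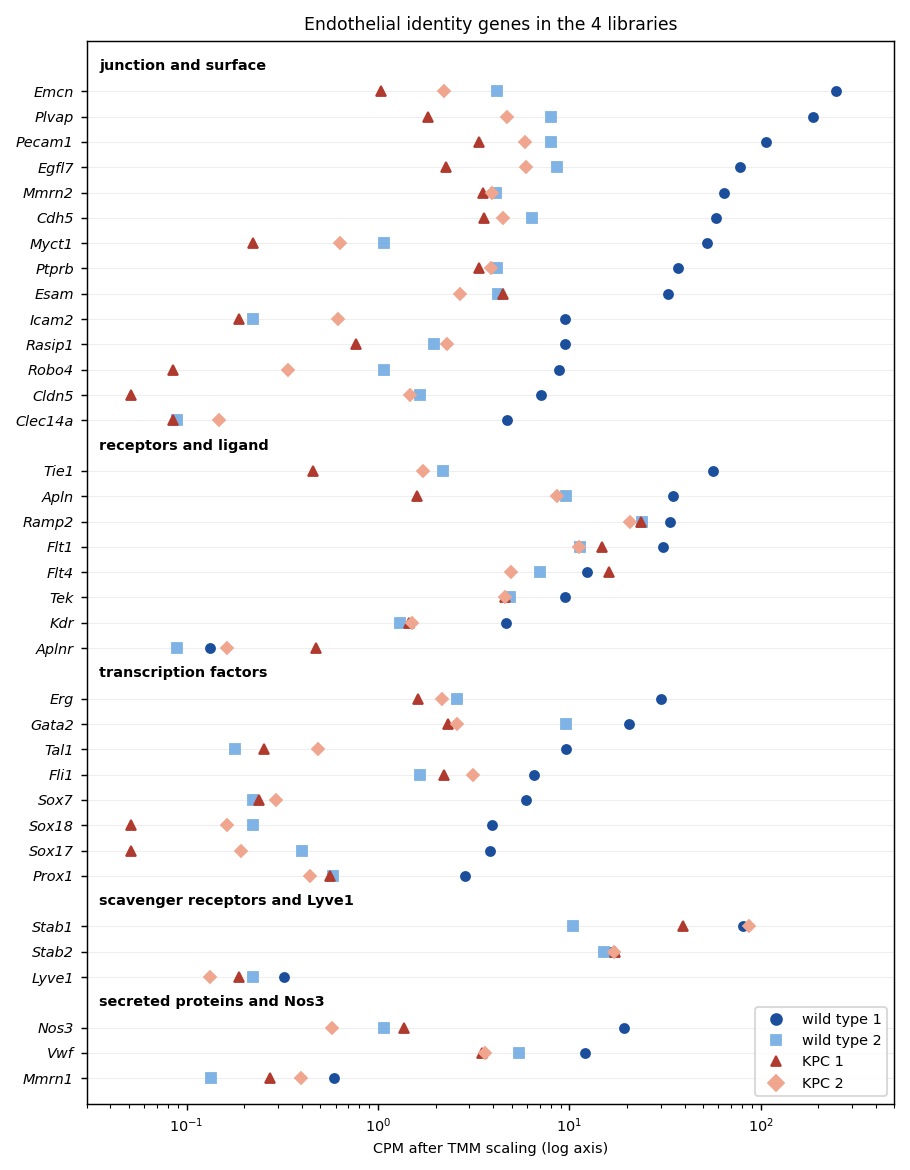
Level of each of the 36 genes (CPM after TMM scaling, log axis) in wild type 1 (dark blue circles), wild type 2 (light blue squares), KPC 1 (dark red triangles) and KPC 2 (light red diamonds), grouped by role; each point is 1 library. Wild type 1 lies to the right of the other 3 libraries for all 14 genes grouped as junction and surface, and not for Flt4, Aplnr, Stab1 or Stab2.

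The genes grouped as junction and surface showed the wild type 1 excess most fully. This group also takes in the secreted protein Egfl7, the matrix protein Mmrn2 and the Ras-interacting protein Rasip1. Emcn, the endothelial sialomucin endomucin (mm10 chromosome 3, 137341068 to 137432185), reached 248 CPM in wild type 1; the values for wild type 2, KPC 1 and KPC 2 were 4.20, 1.04 and 2.21 CPM. Plvap, the protein that forms the diaphragms of endothelial fenestrae and caveolae (chromosome 8, 71497755 to 71511769), had 188, 8.005, 1.84 and 4.73 CPM in the same order. The Plvap interval overlaps that of Gtpbp3 by 1829 bases, so the reads shared by the pair cannot be told apart; Gtpbp3 itself had 93.2 CPM in wild type 1 and 7.46 to 9.525 CPM elsewhere. In both Emcn and Plvap wild type 1 was far above the rest, and wild type 2 was also above both KPC libraries. The exact Poisson intervals at 95%, which cover counting error only, were 3.40 to 5.145 CPM for Emcn in wild type 2 and 1.87 to 2.595 in KPC 2, so these libraries differed by more than counting error.

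Pecam1 (CD31), an adhesion molecule of endothelium, platelets and leukocytes, had 106 and 8.05 CPM in the wild type pair and 3.37 and 5.88 CPM in the KPC pair. Cdh5, the adherens junction cadherin that defines endothelium, had 58.5 and 6.395 CPM in the wild type pair and 3.59 and 4.51 CPM in the KPC pair. Egfl7, a secreted endothelial protein, had 77.8 and 8.63 CPM against 2.26 and 5.91 CPM. Its interval overlaps that of Gm20532 by 6481 bases, and the reads shared by Egfl7 and Gm20532 cannot be told apart. Gm20532 itself had 79.5 CPM in wild type 1 and 11.85 to 17.6 CPM elsewhere. For Pecam1, Cdh5 and Egfl7 the groups did not overlap, yet the gap between the wild type libraries was many times the gap between wild type 2 and KPC.

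Myct1, a small membrane protein of endothelium, had 1 of the steepest contrasts, at 52.5 CPM in wild type 1 against 1.07, 0.221 and 0.634 CPM in wild type 2, KPC 1 and KPC 2. Mmrn2, an extracellular matrix protein of endothelium, had 64.6 CPM in wild type 1 and between 3.55 and 4.16 CPM in the others. Ptprb, the phosphatase VE-PTP that restrains Tek and VE-cadherin signalling, had 36.8 CPM against 3.38 to 4.20 CPM. In Mmrn2 and Ptprb the other 3 libraries were within 1 CPM of each other, and wild type 1 alone stood apart.

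Esam, a tight junction adhesion molecule, had 32.6 and 4.25 CPM in the wild type pair and 4.51 and 2.70 CPM in the KPC pair, and the groups overlapped. Robo4, the endothelial roundabout receptor, had 8.85 and 1.07 CPM against 0.0850 and 0.339 CPM. Cldn5 had 7.13 and 1.655 CPM in wild type, 0.0510 CPM (3 counts) in KPC 1 and 1.47 CPM in KPC 2, so that KPC 2 was close to wild type 2. Icam2, which endothelium shares with leukocytes, had 9.49 CPM in wild type 1 and 0.187 to 0.619 CPM elsewhere. Rasip1, a Ras-interacting protein needed for vessel lumens, had 9.455 CPM in wild type 1 and 0.765 to 2.30 CPM elsewhere. Its interval overlaps that of Izumo1 by 1335 bases. Izumo1 itself had 16.8 and 25.2 CPM in the wild type pair and 5.98 and 7.34 CPM in the KPC pair, more than Rasip1 in every library. The reads shared by Rasip1 and Izumo1 cannot be told apart. Clec14a, a C-type lectin of vessels, had 249 counts in wild type 1, and the others had 2 (wild type 2), 5 (KPC 1) and 10 (KPC 2); it was too low outside wild type 1 to be tested.

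Measured against wild type 1, the level left in the other libraries was small for these 14 genes. The median was 9.25% in wild type 2 (range 1.70% to 23.2%), 2.44% in KPC 1 (0.419% to 13.8%) and 6.30% in KPC 2 (0.893% to 24.3%). Within each of the 3 libraries the share varied more than 10-fold from gene to gene.

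Promoter sequences are shown for members that stood together in wild type 1, because ETS-family factors are known regulators of endothelial promoters. RefSeq promoter windows (GRCm38.p6) were used for 20 of the 36 genes, and in 17 of these the 50 bases after the start lay in an annotated transcript of the gene. The 4 printed first are those with the largest excess in wild type 1 whose 250 bases before the transcript start hold at most 30 annotated exon bases, and Prox1 is added as the lymphatic regulator. Each runs 5′ to 3′ in the direction of the gene. Capitals mark matches, on either strand, to the ETS cores CAGGAA and CCGGAA, the SOX motif AACAAT and the GATA motif AGATAA; none of these motifs contains another.
Emcn, chr3:137340828-137341077, plus strand: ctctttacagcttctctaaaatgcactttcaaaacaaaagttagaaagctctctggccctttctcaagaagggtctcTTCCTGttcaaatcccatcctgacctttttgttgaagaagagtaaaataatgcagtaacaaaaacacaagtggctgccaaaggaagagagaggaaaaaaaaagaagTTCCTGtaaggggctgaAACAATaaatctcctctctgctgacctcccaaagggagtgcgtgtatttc
Myct1, chr10:5593478-5593727, plus strand: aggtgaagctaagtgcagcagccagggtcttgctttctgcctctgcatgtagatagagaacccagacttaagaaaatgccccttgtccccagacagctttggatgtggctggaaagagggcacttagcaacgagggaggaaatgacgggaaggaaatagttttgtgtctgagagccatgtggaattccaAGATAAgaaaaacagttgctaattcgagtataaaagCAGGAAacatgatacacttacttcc
Tal1, chr4:115056176-115056425, plus strand: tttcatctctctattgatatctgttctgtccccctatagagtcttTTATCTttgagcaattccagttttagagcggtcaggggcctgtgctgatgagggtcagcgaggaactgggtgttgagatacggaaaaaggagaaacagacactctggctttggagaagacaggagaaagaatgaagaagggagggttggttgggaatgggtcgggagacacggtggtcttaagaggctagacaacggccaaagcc
Erg, chr16:95586594-95586843, minus strand: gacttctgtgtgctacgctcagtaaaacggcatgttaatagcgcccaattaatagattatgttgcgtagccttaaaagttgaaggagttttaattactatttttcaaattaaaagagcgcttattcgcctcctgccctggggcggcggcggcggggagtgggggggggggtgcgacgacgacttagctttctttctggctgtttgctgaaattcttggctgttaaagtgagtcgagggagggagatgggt
Prox1, chr1:190170828-190171077, minus strand: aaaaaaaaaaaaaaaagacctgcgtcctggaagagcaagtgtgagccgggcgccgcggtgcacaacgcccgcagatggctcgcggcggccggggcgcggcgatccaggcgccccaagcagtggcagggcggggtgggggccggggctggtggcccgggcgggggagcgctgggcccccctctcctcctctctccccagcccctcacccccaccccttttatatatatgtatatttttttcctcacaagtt

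The Emcn window held CAGGAA at 2 places, both on the opposite strand and so read as TTCCTG, and 1 AACAAT. The Myct1 window held 1 CAGGAA and 1 AGATAA, the Tal1 window 1 AGATAA, and the Erg and Prox1 windows held no match. Over the 20 members, CAGGAA occurred in 12 windows (60%), against 24.6% of 17452 gene promoters of the same length, and CCGGAA in 1 (5%), against 15.1%. AACAAT occurred in 3 (15%, against 8.45%) and AGATAA in 2 (10%, against 8.74%). Where the wild type 1 excess was at least 4-fold, Clec14a, Egfl7, Emcn, Myct1, Rasip1, Robo4 and Tie1 had an ETS core. Cldn5, Erg, Prox1 and Tal1 had none. Where it was smaller, Apln, Kdr, Mmrn1, Stab1, Stab2 and Tek had an ETS core, and Flt1, Flt4 and Gata2 had none. The start used for Mmrn1 lies 19340 bases from that of its interval. The members were chosen by name, and a match of letters is a description, not a binding site.

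Among the receptors, Tie1 followed the junction genes and the VEGF receptors did not follow as far. Tie1, the orphan partner of the angiopoietin receptor, had 56.3 CPM in wild type 1 against 2.19, 0.459 and 1.725 CPM in wild type 2, KPC 1 and KPC 2. Tek (Tie2) itself had 9.455 CPM in wild type 1 against 4.875, 4.59 and 4.59 CPM in the others, nearly equal levels in those 3. Flt1, the VEGF receptor that also acts as a decoy, had 30.9 and 11.4 CPM in the wild type pair and 14.8 and 11.3 CPM in the KPC pair. Kdr, the main signalling VEGF receptor of blood vessels, was low throughout, at 4.64 and 1.30 CPM in the wild type pair and 1.45 and 1.504 CPM in the KPC pair. In Flt1 and Kdr the groups overlapped, with wild type 2 within or below the KPC range.

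Apln, the apelin ligand of sprouting endothelium, had 34.8 and 9.66 CPM in the wild type pair and 1.60 and 8.60 CPM in the KPC pair, and KPC 1 was the low library. Its receptor gene Aplnr had 7 and 2 counts in wild type and 28 and 11 counts in KPC, under 0.5 CPM in each library, and was not tested. Ramp2, the co-receptor for adrenomedullin, had 33.4 and 23.9 CPM in the wild type pair and 23.6 and 20.7 CPM in the KPC pair, at first sight an even gene. Its interval takes in 99.9% of the interval of Vps25, an endosomal sorting gene whose own counts equal 92.8% of those of Ramp2. The counts of Ramp2 beyond those of Vps25, which bound from below the reads lying outside Vps25, were 268 and 18 in wild type and 15 and 65 in KPC. That is 5.10 CPM in wild type 1 against 0.805, 0.255 and 0.958 CPM elsewhere, so wild type 1 was again the highest. This check was chosen after the values were seen.

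The transcription factors held a strongly and a weakly separated set. Erg, an ETS factor that maintains endothelial identity, had 30.1 CPM in wild type 1 against 2.59, 1.615 and 2.17 CPM in wild type 2, KPC 1 and KPC 2. The SoxF genes were lower but shared the pattern: Sox7 had 5.92 CPM in wild type 1 and 0.224 to 0.295 CPM elsewhere, Sox17 had 3.86 CPM and 0.0510 to 0.403 CPM, and Sox18 had 3.96 CPM and 0.0510 to 0.224 CPM. Tal1, a blood and vessel regulator, had 9.61 CPM in wild type 1 and 0.179 to 0.487 CPM elsewhere. In these 5 genes the other 3 libraries were all far below wild type 1; the highest share was that of Sox17 in wild type 2, at 10.4%.

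Fli1, an ETS factor that leukocytes also use, had 6.56 and 1.655 CPM in the wild type pair and 2.21 and 3.14 CPM in the KPC pair, and wild type 2 was the lowest library. Gata2, which has roles in endothelium, blood progenitors and other cells, was the member that separated the groups best. It had 20.4 and 9.57 CPM in the wild type pair and 2.33 and 2.58 CPM in the KPC pair. Both wild type libraries were at least 3.71 times the higher KPC library, and wild type 2 held 46.9% of the wild type 1 level, against 1.70% for Emcn.

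Of the 4 lymphatic genes, Lyve1 and Mmrn1 had few counts, Prox1 was highest in wild type 1, and Flt4 was highest in KPC 1. Prox1 had 2.85 CPM in wild type 1 against 0.581, 0.561 and 0.442 CPM in wild type 2, KPC 1 and KPC 2, a 4.91-fold excess over the highest of these. Flt4, the VEGF-C receptor of lymphatic endothelium, had 12.4 and 7.02 CPM in the wild type pair and 16.1 and 4.98 CPM in the KPC pair, with the highest value in KPC 1. Lyve1, the hyaluronan receptor of lymphatics and some macrophages, had 17 and 5 counts in wild type and 11 and 9 in KPC. Mmrn1, a secreted protein of lymphatics and platelets, had 31 and 3 counts against 16 and 27. Neither of these 2 reached 0.6 CPM in a library.

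Set side by side, the 4 lymphatic members (Prox1, Lyve1, Flt4, Mmrn1) summed to 16.2 and 7.96 CPM in the wild type pair and 17.1 and 5.96 CPM in the KPC pair. Flt4 alone made up most of this sum, with 12.4 and 7.02 CPM in the wild type pair and 16.1 and 4.98 CPM in the KPC pair. The 9 blood vascular members (Flt1, Emcn, Plvap, Robo4, Sox17, Vwf, Nos3, Apln, Aplnr) summed to 545.5 and 41.4 CPM in the wild type pair and 24.8 and 31.7 CPM in the KPC pair. The median log2 fold change, KPC against wild type, was -3.77 over the 8 tested blood vascular members and -0.53 over the 4 lymphatic members, and -0.01 over all tested rows. The lymphatic values were -1.82 for Prox1, -0.82 for Lyve1, -0.24 for Mmrn1 and 0.11 for Flt4. Lyve1 and Mmrn1 had at most 17 and 31 counts in a library, so the lymphatic median rests on few well-counted genes. Without wild type 1 the blood vascular median was -0.92 and the lymphatic median turned to 0.19. The lists overlapped gene by gene: the excess in wild type 1 was smaller in Apln, Vwf, Flt1 and Aplnr than in Prox1. The split between the lists follows general knowledge of these genes, and no test compared them.

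**Figure D2:**
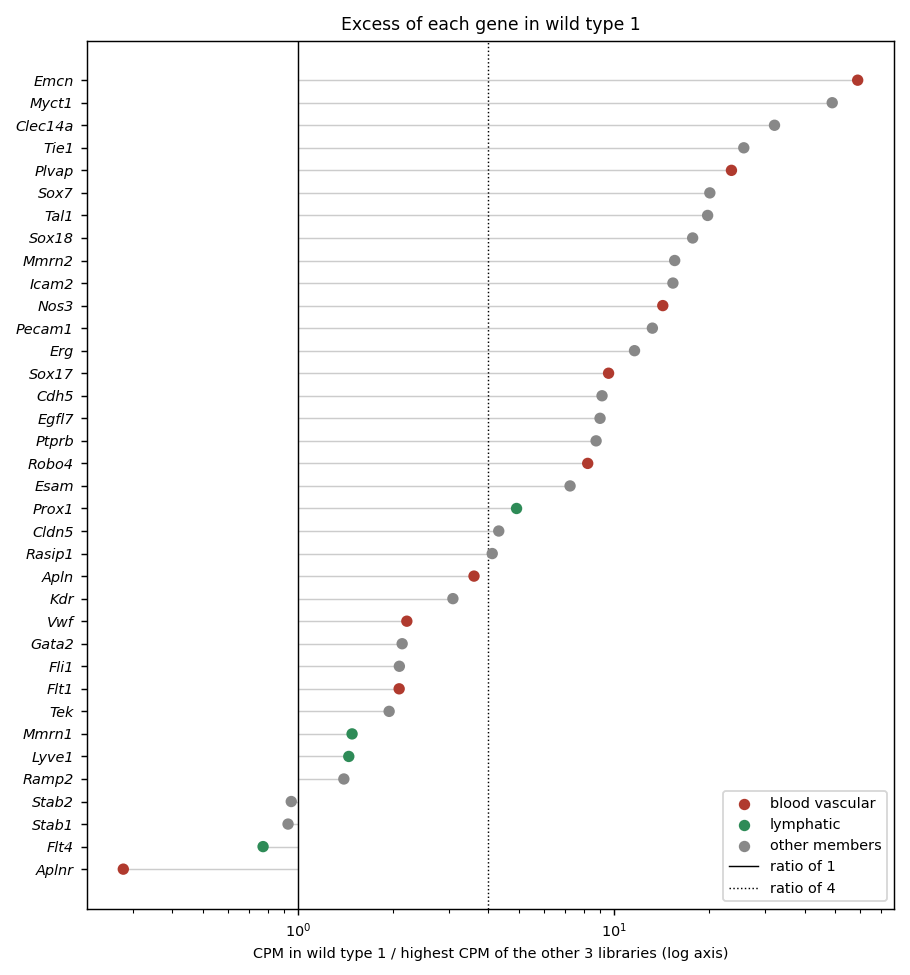
CPM of each gene in wild type 1 divided by its highest CPM in the other 3 libraries (log axis), ordered by size; red points are blood vascular members, green points lymphatic members and grey points the rest. The 2 kinds overlap: blood vascular genes run from 0.280 (Aplnr) over 2.21 (Vwf) and 3.60 (Apln) to 58.9 (Emcn), and lymphatic genes from 0.7745 (Flt4) to 4.91 (Prox1).

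Vwf, the clotting factor stored in endothelial granules, had 12.04 and 5.46 CPM in the wild type pair and 3.50 and 3.64 CPM in the KPC pair, without overlap. Nos3, the endothelial nitric oxide synthase, had 19.4 CPM in wild type 1 against 1.07, 1.36 and 0.575 CPM elsewhere. The interval of Gm15587 lies within that of Nos3 and held 60.2% of its counts. With no strand in the counts the pair cannot be told apart. Outside Gm15587, Nos3 had 7.04 CPM in wild type 1, and the highest other value was 0.969 CPM, in KPC 1. The Nos3 interval also overlaps that of Atg9b by 293 bases, and Atg9b had 17.5 CPM in KPC 1 and 1.34 to 2.95 CPM elsewhere. Nos3 counts beyond those of Atg9b, a lower bound, came to 17.4 CPM in wild type 1 and 0 elsewhere, so the KPC 1 value may hold shared reads.

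Stab1 and Stab2, scavenger receptors of sinusoidal endothelium, departed from the rest. Stab1, which macrophages also express, had 80.7 and 10.5 CPM in the wild type pair and 39.2 and 86.9 CPM in the KPC pair, so that wild type 1 and KPC 2 were both high. Macrophage markers did not share the high value of wild type 1: all 17 summed to 141 and 358.5 CPM in the wild type pair and 1230 and 2465 CPM in the KPC pair. For 16 of the 17 both KPC values exceeded both wild type values (20.6% of all rows). Lyz2, a lysozyme gene, led them with 6.24 and 131.9 against 629.5 and 1416 CPM, and Ctss, a lysosomal protease gene, had 28.65 and 44.63 against 130.4 and 213.6 CPM. Their part in the Stab1 level was not tested. Stab2 had 16.6 and 15.3 CPM in the wild type pair and 17.4 and 17.1 CPM in the KPC pair, flat across the libraries. Of its counts 91.6% lay in the 408 bases of Gm16269, a gene inside its interval. Outside it Stab2 had 1.58 and 1.61 CPM in the wild type pair and 1.48 and 1.18 CPM in the KPC pair, again without a wild type 1 excess.

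Levels of different genes were compared per kilobase of annotated exon (GENCODE M21). In wild type 1 the highest members were Plvap at 94.6, Emcn at 45.8 and Egfl7 at 21.7 CPM per kb, followed by Myct1 at 19.25, Pecam1 at 17.1 and Mmrn2 at 16.4. Kdr, at 0.514 CPM per kb, was far below Flt1 at 2.29, Tek at 2.01 and Tie1 at 11.45, and Prox1 and Lyve1 were at 0.342 and 0.123. The counts run over whole intervals, so intronic reads are included: in wild type 1 the covered bases came to 186% of the exon length of Emcn and 154% of that of Cdh5, and to 37.0% for Kdr and 19.2% for Lyve1. In KPC 1 they came to 27.6% for Emcn, 38.7% for Cdh5 and 4.395% for Robo4.

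The test of KPC against wild type, edgeR's quasi-likelihood test with Benjamini-Hochberg adjustment over all 23046 rows, called 0 members at an adjusted p of 0.05 and 0 rows in all (0% of rows in each direction). The smallest adjusted p among members was 0.289, for Gata2. At an unadjusted p under 0.05 there were 13 members lower in KPC and 0 higher, of 34, where 3.94% of all rows were lower and 4.73% higher. The 13 were Emcn, Plvap, Pecam1, Cdh5, Egfl7, Robo4, Myct1, Tie1, Erg, Sox17, Sox18, Gata2 and Vwf. Of the 34, 31 had a negative log2 fold change, against 51.2% of rows, and the median was -2.57. Both wild type libraries were above both KPC libraries in 21 of the 34 (20.5% of rows) and below both in 1, Stab2 (20.6% of rows). A member such as Sox18 had most of its counts in wild type 1, and such genes pass the filter on low counts mainly where they are high, so these counts are a description of the list.

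Emcn had the largest fold change among members, a log2 value of -6.27 ± 1.99 (SE), with an edgeR adjusted p of 0.537. For Gata2 it was -2.61 ± 0.43, with the smallest standard error relative to its size. Vwf had -1.30 ± 0.43 (adjusted p = 0.541 by edgeR). Flt1, Tek and Fli1 lay between -0.64 and -0.70 with standard errors of 0.38 to 0.68, and Flt4 and Stab2 at 0.11 ± 0.63 and 0.12 ± 0.17. An exact permutation test of 2 libraries against 2 cannot give a p under 0.333 and was not used. DESeq2 called 4 members lower, Gata2, Robo4, Sox17 and Sox18 (adjusted p = 3.88e-06, 0.00201, 0.0281 and 0.0441), where it called 1.28% of rows lower and 1.44% higher.

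The result turned on which wild type library was kept. Without wild type 2, edgeR called 22 members lower, against 1.69% of rows, and 0 higher. Without wild type 1 it called 0 members, where 0.0209% of rows were called lower; at an unadjusted p under 0.05 there were 3 of 35 lower (3.66% of rows) and 1 higher (4.67% of rows). The 3 were Gata2 with a log2 fold change of -1.96 (edgeR unadjusted p = 0.00106, adjusted 0.159), Robo4 with -2.30 (0.0398, adjusted 0.576) and Emcn with -1.36 (0.0461, adjusted 0.593). The 1 higher was Stab1, with 2.59 (0.00679, adjusted 0.35). In these fits 1 group has a single library, which is assumed to vary like the other. Without wild type 1, 24 of the 35 had a negative log2 fold change (47.3% of rows). The median over the members went from -2.57 to -0.24, and Kdr, Flt1, Sox7, Fli1, Tal1, Mmrn1 and Icam2 changed sign.

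**Figure D3:**
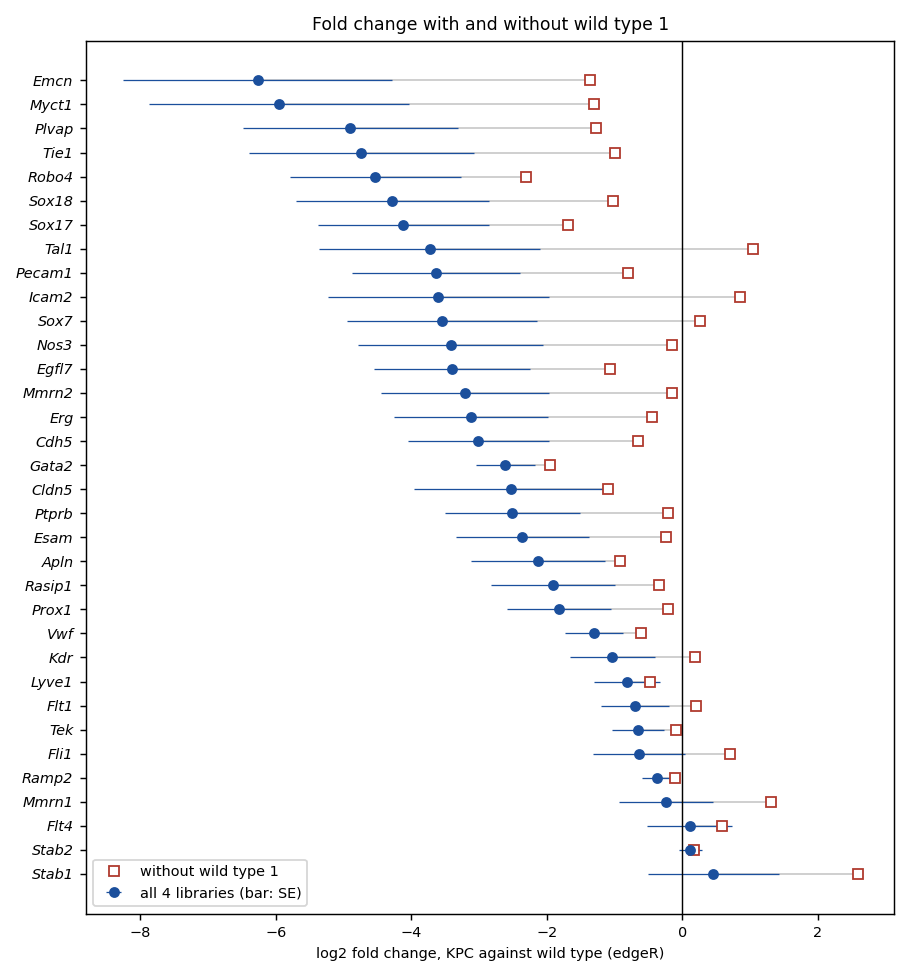
log2 fold change of KPC against wild type (edgeR) for the 34 tested genes with all 4 libraries (blue circles, bars are the standard error) and without wild type 1 (open red squares). Emcn moves from -6.27 to -1.36 and Tal1 from -3.73 to 1.05, while Gata2 moves from -2.61 to -1.96.

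Further endothelial genes outside the list shared the wild type 1 excess in part. Of 28 with a row, 22 were tested and 0 passed. Wild type 1 was highest for 15 of the 22 (31% of all rows). It was at least 4-fold above the highest other library for 5 (0.881% of all rows). At an unadjusted edgeR p under 0.05 there were 7 lower in KPC (3.94% of all rows) and 0 higher (4.73% of all rows). Of the log2 fold changes 17 were negative (51.2% of all rows) and 5 positive, and the median log2 fold change was -0.68. Cd34, a sialomucin of endothelium and progenitors, had 80.0 and 1.88 CPM in the wild type pair and 0.476 and 1.86 CPM in the KPC pair. Selp, the endothelial and platelet P-selectin, had 36.4 CPM in wild type 1 and 1.00 to 1.785 CPM elsewhere, and the gap junction gene Gja4 of arterial endothelium had 9.13 CPM and 0.153 to 0.492 CPM. Eng, a TGF-beta family co-receptor that fibroblasts also express, had 215 and 110 CPM in the wild type pair and 19.5 and 60.7 CPM in the KPC pair. The others were Bmx, She and Eltd1, with log2 fold changes of -1.16, -1.48 and -2.14. Gja5 and Sele, too low to be tested and named after their values were seen, had 156 and 126 counts in wild type 1 and at most 3 and 8 elsewhere. Other untested genes showed no such excess: the counts in the order wild type 1, wild type 2, KPC 1, KPC 2 were 1, 8, 1 and 9 for Gpihbp1, 4, 3, 12 and 8 for Tmem100 and 3, 1, 3 and 5 for Car4, and Etv2 had 0 in all. Among tested genes Ecscr, Tspan18, Foxf1 and Cd200 had positive log2 fold changes of 0.33, 0.36, 0.85 and 0.43, and Ets1 had -0.06. The value for Cd200 had a standard error of 2.03. Cd200 was high in wild type 1 and KPC 1 (39.6 and 54.5 CPM) and low in wild type 2 and KPC 2 (1.16 and 0.958 CPM).

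Of 12 further genes linked to lymphatic endothelium, 10 were tested, with a median log2 fold change of -0.21. At an unadjusted edgeR p under 0.05 there were 2 lower in KPC (3.94% of all rows) and 0 higher (4.73% of all rows). The 2 were Foxc2, a lymphatic valve regulator also expressed in mesenchyme, at 22.6 and 11.05 CPM against 4.22 and 5.205 CPM, and Flrt2 at 35.8 and 19.5 against 9.825 and 6.28 CPM. The next by p were Nts, at 0.856 and 0.850 against 0.102 and 0.413 CPM, and the nuclear receptor gene Nr2f2, at 43.2 and 24.4 against 16.1 and 22.8 CPM. Podoplanin (Pdpn), which fibroblasts also make, was lowest in wild type 1, at 41.8 CPM against 117 to 232 CPM; it and the next gene were named after their values were seen. The lymphatic chemokine gene Ccl21a had at most 5 counts in a library.

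Genes of angiogenic signalling gave little separation: 27 of 28 were tested, and the median was -0.26. At an unadjusted edgeR p under 0.05 there were 2 lower (3.94% of all rows) and 0 higher (4.73% of all rows). Hey2, an arterial Notch target, had 5.78 CPM in wild type 1 and 0.192 to 0.403 CPM elsewhere, and Notch4, an endothelial Notch receptor, had 13.3 and 13.3 CPM in the wild type pair and 4.73 and 8.32 CPM in the KPC pair. The ligand gene Angpt2 had 31.1 CPM in wild type 1 and 3.43 to 6.485 CPM elsewhere. Nrp1, a VEGF and semaphorin co-receptor, had 66.4 and 79.7 against 44.7 and 56.3 CPM. In both further lists 0 genes passed over all rows.

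Ranked by the excess of wild type 1 over the highest of the other libraries, members filled 5 of the first 20 rows 11 of the first 50 and 12 of the first 100, among 10340 rows with at least 10 CPM in wild type 1, of which 0.193% were members. The 15 other rows among the first 20 were Cd34, Selp, Serpina3f, Serpina3h, Serpina3i, Aldh1a1, Aldh1a7, Ctla2a, Rarres1, Mest, Eln, BC023719, Gm15587, Gm16548 and Gm16897. Ctla2a had the highest level of these, at 724 CPM in wild type 1 and 21.15 to 35.6 CPM elsewhere. The Serpina3 and Aldh1a genes are families of closely similar copies, whose counts are uncertain. Eln, the elastin gene, had 138 CPM and 3.53 to 8.18 CPM elsewhere. Lower in the ranking, between places 45 and 96, were 24 abundant rows of at least 500 CPM that are no members and were 5.46- to 7.72-fold higher in wild type 1, a group picked after its values were seen. They summed to 54280 CPM in wild type 1 against 7631, 5860 and 8110 CPM in wild type 2, KPC 1 and KPC 2, with reads in overlapping intervals counted more than once. Gm26924 was the most abundant, at 10950 CPM in wild type 1 and 1309 to 1913 CPM elsewhere, and Lars2, a mitochondrial tRNA synthetase gene, had 2359 CPM and 249.7 to 315.2 CPM. The excess of Esam (7.25-fold) lay in the range of these rows and that of Prox1 (4.91-fold) below it; the part of these rows in the members' values was not tested.

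Other cell types were spread differently over the libraries. Islet markers (14 genes) summed to 967 CPM in wild type 2 and 4.20 to 9.40 CPM elsewhere, with Ins2 and Chgb in the lead. Epithelial markers (12) summed to 32.6 CPM in wild type 1 and 434 to 1187 CPM elsewhere, led by Krt18 and Krt8, and mesothelial markers (8, led by Krt19 and Msln) to 31.3 CPM and 50.4 to 186.5 CPM. Pericyte markers (10, led by Des and Pdgfrb) summed to 483 and 499 CPM in the wild type pair and 1634 and 814 CPM in the KPC pair. Des, a muscle and pericyte filament gene, carried this order, with 5.33 and 281 CPM against 1507 and 620 CPM. Without it, a sum formed after the values were seen, the other 9 summed to 477 and 217.5 CPM in the wild type pair and 126 and 194 CPM in the KPC pair. Pdgfrb (194 CPM), Mcam (168 CPM), Cspg4 (102 CPM) and Notch3 (9.55 CPM) were highest in wild type 1, as most endothelial genes were. The other genes of the 9 were not. Ndufa4l2 (2.11 CPM), Abcc9 (0.685 CPM), Rgs5 (0.628 CPM) and Kcnj8 (0 counts) were lowest there. Higd1b had 0 counts in wild type 1 and wild type 2. Schwann markers (11, led by Mbp and Pmp22) summed to 272 to 340 CPM in all 4, and platelet and mast cell markers (14, led by Cpa3 and Pf4) to 256 to 437 CPM. Mbp (196 to 238 CPM) and Cpa3 (176 to 217 CPM) were the largest part of these sums, and single genes varied more. Wild type 1 was highest for 8 of 10 tested Schwann markers and 4 of 10 tested platelet and mast cell markers (31% of all rows). Ngfr had 15.1 CPM in wild type 1 and 0.0737 to 2.01 CPM elsewhere, and Pf4 had 0.133 CPM and 26.3 to 179.5 CPM. The part of these cell types in the endothelial values was not tested; wild type 1 had the lowest sum for macrophage, epithelial and mesothelial markers, and the highest for pericyte markers without Des. The platelet gene Gp9 had at most 3 counts in a library, and Tpsb2, a mast cell tryptase gene, had 0 in all 4.

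**Figure D4:**
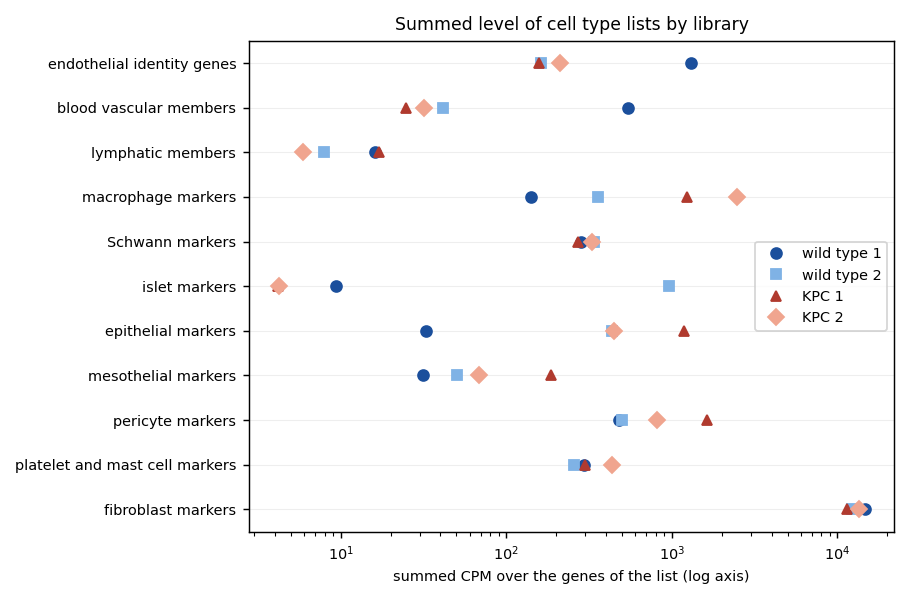
Summed CPM (log axis) of the endothelial genes, their blood vascular and lymphatic members, and marker lists of other cell types, with 1 point for each library. The endothelial sum is highest in wild type 1 (1299 CPM against 157 to 211 CPM), the islet sum in wild type 2 and the macrophage sum in the KPC libraries.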

How the data were processed

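The libraries were made from poly-A RNA and read from 1 end, per the labels' protocols. Tools listed in the submitters' processing notes are TopHat2 2.0.3, bedtools, SAMtools 0.1.18 and FastQC 0.10.1, with mm10/GRCm38 as the build; their roles are not given in the sources used here. The authors deposited 1 table per library holding a read count per gene interval, covered bases, interval length and the covered fraction; units were read from the values. The deposited fraction entered no result. Intervals include introns, counts show no strand, and reads in overlapping intervals appear in each.

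Counts were tested with edgeR 4.0.16 in R 4.3.3 (filterByExpr with a minimum count of 10, TMM factors, quasi-likelihood test, two-sided, with Benjamini-Hochberg adjustment; fold changes are KPC over wild type). The standard error is the log2 fold change without shrinkage divided by the square root of F. Scripts were tested on simulated data. Members, lists and tests were chosen with earlier results of these data known. All members were named. From other endothelial, lymphatic and angiogenic lists, genes with an unadjusted p under 0.05 were named (at least 4 per list), from other cell types the 2 of highest mean CPM, and up to 15 other rows with the largest wild type 1 excess. Alternatives were other scaling factors and filters, DESeq2 1.42.0, limma 3.58.1 voom, an adjusted p of 0.10, a block on replicate number, and leaving out single libraries. Figures were drawn with matplotlib 3.10.9.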

Additional observations from a re-analysis of the deposited data

How the results depend on the processing

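RLE, upper quartile and no scaling factors, other low-count filters, limma voom, an adjusted p of 0.10 and the replicate block each left 0 rows and 0 members called; DESeq2 called 627 rows and 4 members. Members lower at an unadjusted p under 0.05 (13) numbered 23 with no filter, 20 by DESeq2 and 3 by voom. With at least 1 CPM in 2 libraries the lymphatic median was 0.09524, since 1 of its genes was then tested. The labels give both groups replicates 1 and 2 without saying that a number marks a shared batch, and the deviations of same-numbered libraries correlated at 0.1357 across genes; with the replicate block 4 members were lower at an unadjusted p under 0.05. Flt4 was -0.1478 by voom and -0.05468 with the block. Leaving out 1 library at a time, rows called ranged from 0 to 835, members called from 0 to 22, members lower at an unadjusted p from 1 (without KPC 1; 4 without KPC 2) to 29 and members higher from 0 to 1. The median ranged from -3.271 to -0.2375 over all members, from -4.325 to -0.917 over blood vascular members and from -1.008 to 0.1859 over lymphatic members. Log2 fold changes that changed sign ranged from -1.651 to 0.187 (Kdr), -1.244 to 0.1955 (Flt1), -0.9596 to 0.7169 (Flt4), -4.456 to 0.2557 (Sox7), -1.291 to 0.6954 (Fli1), -4.676 to 1.051 (Tal1), -0.8041 to 1.312 (Mmrn1), -4.695 to 0.8582 (Icam2) and -0.3535 to 2.587 (Stab1). The cause of these changes was not tested. Outside wild type 1, depth limits Sox18, Clec14a, Aplnr, Lyve1 and Mmrn1, which had few counts.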
